A study of Caenorhabditis elegans with 11 samples.

Results

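Loss of the histone methyltransferases MET-2 and SET-25 was followed here by RNA polymerase II (Pol II) occupancy in young adult hermaphrodites of Caenorhabditis elegans that kept SET-32. Pol II was measured by chromatin immunoprecipitation and sequencing (ChIP-seq), 1 library per genotype, as RPKM in 1 kb bins of the genome. RPKM scales the reads of a bin to its length and to the size of the library. The mutant libraries were met-2(n4256) set-25(n5021), called the double mutant here, and the same with hrde-1(tm1200), called the hrde-1 triple mutant, and the intact libraries were the wild-type strain N2 and the hrde-1(tm1200) single mutant. They were chosen by genotype, as the 4 libraries with SET-32 intact among 8 Pol II libraries and 11 samples of the series. Each mutant was set against the intact library of the same hrde-1 status, giving an N2 pair and a hrde-1 pair. Worms of all 4 were fed E. coli OP50, and the tissue was whole animals, so a change in the number of cells of a type and a change within cells cannot be told apart.

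MET-2 and SET-25 are known to methylate lysine 9 of histone H3, MET-2 up to the dimethyl mark and SET-25 up to the trimethyl mark. Both marks are concentrated in repeats and on the arms of the autosomes, and worms without both enzymes are known to transcribe some repeats that are otherwise silent. HRDE-1 is a germline Argonaute protein that, guided by small RNAs, directs silencing of transcription in nuclear RNA interference, and SET-32 is a further SET domain protein of that pathway. The comparison asks which stretches of the genome carry more or less Pol II without MET-2 and SET-25, and whether they are those that HRDE-1 represses.

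The table held 100257 bins, and the 95735 with a mean of at least 2 RPKM over the 4 libraries were tested. Just inside that limit, the bin at I 7277001 read 2.33 RPKM in the double mutant, 1.67 in the hrde-1 triple mutant, 2.43 in N2 and 1.57 in hrde-1, and just outside it I 2548001 read 3.33, 2.88, 1.08 and 0.70 RPKM in the same libraries. From the step size of low values the libraries held about 3.004 M reads in the double mutant, 6.60 M in the hrde-1 triple mutant, 3.70 M in N2 and 5.72 M in hrde-1. A bin at 10 RPKM thus held 30.04 to 66.0 reads, which gives 12.3 to 18.2% of counting error. The double mutant library was the most evenly covered of the 4, with a 90th to 10th percentile ratio of 7.63, against 12.2 in the hrde-1 triple mutant, 12.01 in N2 and 14.1 in hrde-1. The names of 3 libraries share the prefix SG0615, and only the hrde-1 library has another, SG0117, so the N2 pair is the comparison within a prefix.

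Without MET-2 and SET-25, Pol II was higher in a small number of short, scattered stretches and lower in others. Which direction held more of them depended on the scaling of the libraries. A difference of at least 1 on the log2(RPKM + 1) scale in both pairs, with at least 10 RPKM in the higher library of each, was met by 90 higher bins (0.0940% of those tested) in 58 regions and by 18 lower bins (0.0188%) in 12 regions. With libraries centred on their medians, the same rule gave 46 higher and 53 lower bins. In the N2 pair alone this rule of size gave 740 higher and 481 lower bins, and in the hrde-1 pair alone 888 and 419 (at least 1 on this scale is written as 2-fold from here), so most large differences of a pair were not seen in the other. By limma (moderated test on 4 libraries with hrde-1 status as a term, Benjamini-Hochberg adjusted), 518 bins were higher (0.541%) and 228 lower (0.238%), and they included all 90 and all 18 bins of the size rule. With centred libraries the limma split was 202 higher and 249 lower.

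These limma calls are fragile. The fit had 1 residual degree of freedom and an estimated prior without limit, so each bin was judged against the typical spread of bins of its level and not against its own. Without the intensity trend in the prior, 0 bins were higher and 2 lower, with 8866 at an unadjusted p under 0.05. Among the 518 higher bins, 195 were 2-fold or more apart in both pairs, 72 in the N2 pair alone, 244 in the hrde-1 pair alone and 7 in neither, and of the 228 lower bins the counts were 23, 92, 78 and 35. In a fit over the 8 Pol II libraries of the series, 0 of 15 named gains stayed past the threshold without the hrde-1 library, 0 without the hrde-1 triple mutant, 11 without N2 and 11 without the double mutant. With no library left out, that fit kept 7 of the 15. Because the calls rest so much on single libraries, the values of each library are given below for most named regions. Levels of a region are means over its called bins, limma p-values are the smallest adjusted p of the region's bins, and the log2 change is the mean over the called bins with its SE.

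**Figure D1:**
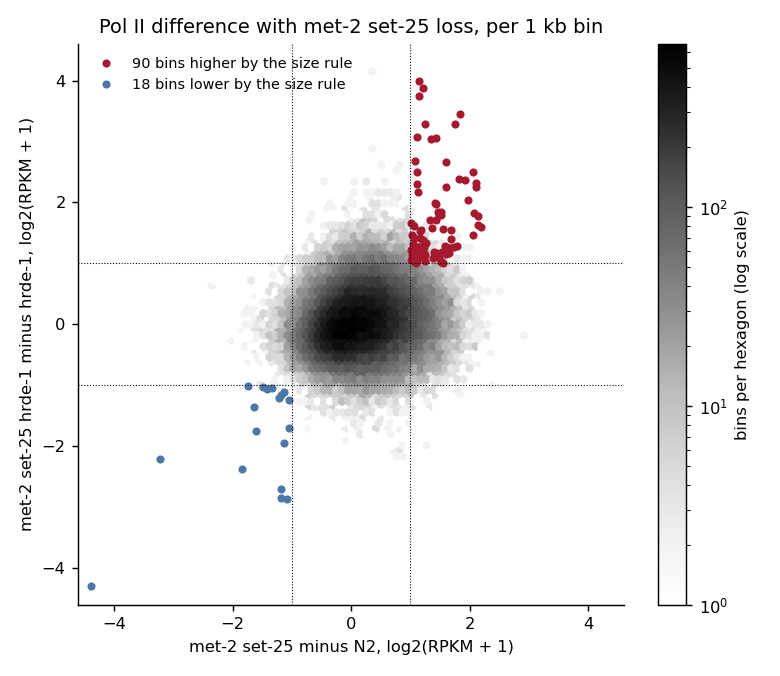
Difference in Pol II between mutant and intact libraries per 1 kb bin, in log2(RPKM + 1), in the N2 pair (x axis) and the hrde-1 pair (y axis). Grey shows the number of bins per hexagon on a log scale, and dotted lines mark a difference of 1 in either direction. Coloured points are the 90 bins higher and 18 bins lower by the size rule, which itself sets where they can lie. The cloud of all bins is broad and centred near 0.

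Among the 15 named gains, both mutants were closest to each other on chromosome IV, 5683001 to 5690000. Over its 7 called bins Pol II averaged 12.3 RPKM in the double mutant and 12.4 in the hrde-1 triple mutant, against 2.70 in N2 and 2.88 in hrde-1 (log2 change 1.81 ± 0.32 SE, limma adjusted p = 3.77e-11). The groups did not overlap; over all bins tested, 22.2% had both mutants above both intact libraries and 13.0% both below. On chromosome III, 10982001 to 10988000, the averages over 5 called bins of its 6 kb were 26.1 and 28.2 RPKM in the double mutant and the hrde-1 triple mutant, against 6.48 in N2 and 3.85 in hrde-1 (log2 change 2.22 ± 0.26 SE, limma adjusted p = 1.04e-21). All 5 passed the size rule, and the uncalled bin, III 10983001, read 4.33 and 3.79 RPKM in the mutants, against 2.97 in N2 and 2.80 in hrde-1. Of the values in this stretch 37.5% lay within 0.1 read of a whole number, against 82.9% over tested bins of at most 60 RPKM. How the authors counted reads that map to several places is not stated, and sharing of reads was not tested.

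Chromosome V held several gains of the same kind. V 13198001 to 13202000 averaged, over 3 called bins of its 4 kb, 20.6 RPKM in the double mutant and 19.4 in the hrde-1 triple mutant, against 5.27 in N2 and 3.58 in hrde-1 (log2 change 1.93 ± 0.28 SE, limma adjusted p = 1.68e-16). Its uncalled bin, V 13199001, read 8.32 and 4.39 RPKM in the mutants, against 3.11 in N2 and 2.88 in hrde-1. Between V 2351001 and 2503000, 6 separate single bins passed the size rule, chosen here after their values were seen. They read 11.2 to 14.3 RPKM in the double mutant and 10.7 to 17.0 in the hrde-1 triple mutant, against 3.45 to 5.94 in N2 and 2.30 to 7.26 in hrde-1. Only 25% of their values were whole reads, and whether they are separate gains was not tested. II 4869001 to 4871000 averaged 15.0 RPKM in the double mutant and 27.995 in the hrde-1 triple mutant, against 5.47 in N2 and 4.20 in hrde-1 (log2 change 1.90 ± 0.27 SE, limma adjusted p = 5.78e-10), with no overlap. III 13019001 to 13021000 likewise read 14.8 and 24.3 RPKM in the double mutant and the hrde-1 triple mutant, against 4.46 in N2 and 2.84 in hrde-1 (log2 change 1.96 ± 0.29 SE, limma adjusted p = 1.3e-18).

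The longest stretch of the size rule was 16 kb of chromosome I, 10204001 to 10220000, named after its values were seen. It averaged 45.8 RPKM in the double mutant and 30.3 in the hrde-1 triple mutant, against 14.3 in N2 and 12.6 in hrde-1. The difference was nearly constant along it, at 1.40 to 1.78 per bin in the N2 pair and 1.02 to 1.28 in the hrde-1 pair. All 16 bins carry the authors' mark misanotated (spelled as in the table), 20.3% of their values were whole reads, and they make up 16 of the 17 misanotated bins among the 90. Whether these worms carry the same number of copies of this stretch was not tested. Without misanotated bins the size rule gave 73 higher bins.

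**Figure D2:**
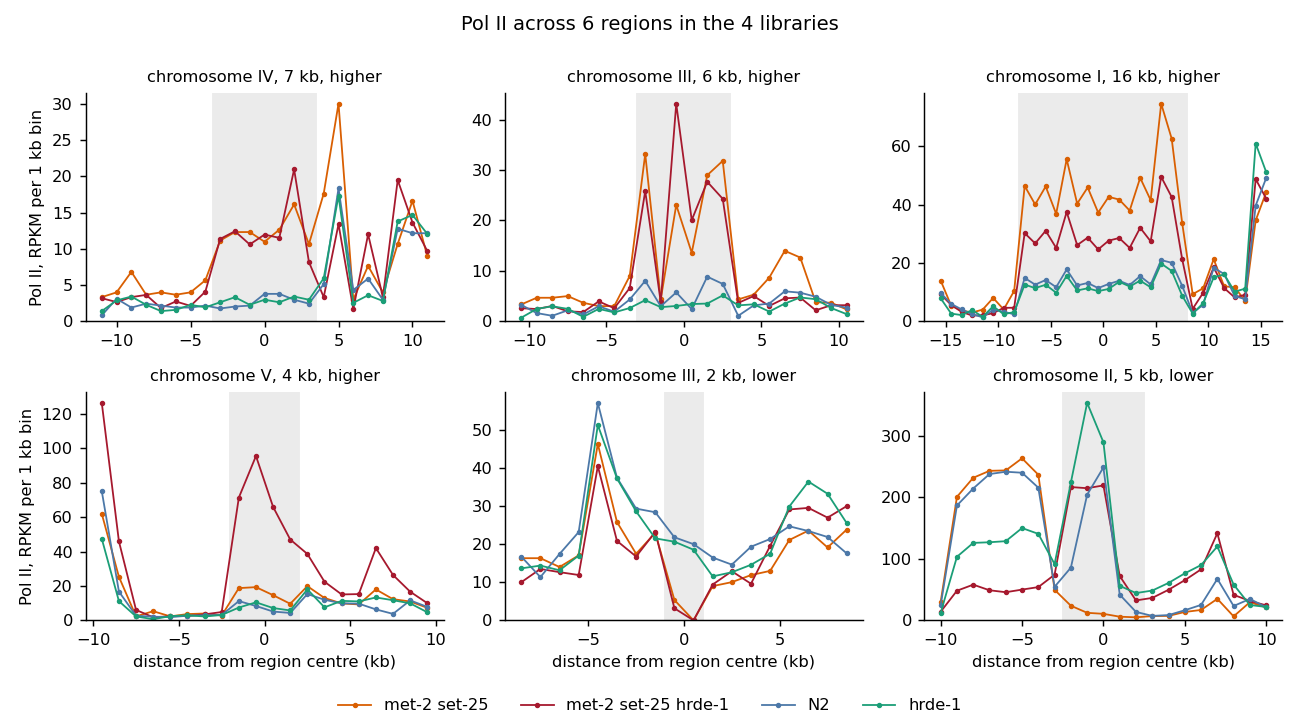
Pol II in RPKM per 1 kb bin against the distance from the centre of 6 regions in kb, in the 4 libraries, with the region shaded. The chromosome IV, III and I gains are shared by both mutants, the chromosome V gain is mainly that of the hrde-1 triple mutant, the chromosome III loss reaches 0 in both mutants, and the chromosome II loss is that of the double mutant.

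Other named gains leaned on the hrde-1 triple mutant. V 20501001 to 20505000 averaged 15.6 RPKM in the double mutant and 69.9 in the hrde-1 triple mutant, against 7.26 in N2 and 7.72 in hrde-1 (log2 difference 1.04 in the N2 pair and 3.01 in the hrde-1 pair, limma adjusted p = 9.59e-17). V 2321001 to 2332000 averaged 4.59 and 40.7 RPKM in the double mutant and the hrde-1 triple mutant, against 3.25 in N2 and 2.44 in hrde-1 (differences 0.49 and 3.42, limma adjusted p = 9.51e-14). At II 9800001 to 9803000 the averages were 5.16 and 66.7 RPKM in the double mutant and the hrde-1 triple mutant, against 3.60 in N2 and 3.76 in hrde-1 (differences 0.31 and 3.72). The last 2 were thus high in 1 of the 4 libraries, and neither holds a bin of the size rule. V 6835001 to 6837000 read 15.0 and 57.3 RPKM in the double mutant and the hrde-1 triple mutant, against 8.24 in N2 and 4.20 in hrde-1, and IV 325001 to 327000 read 22.0 and 51.4 RPKM in the same mutants, against 9.72 in N2 and 5.68 in hrde-1.

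At further regions the difference was larger in the hrde-1 pair, where the hrde-1 library was low. IV 9563001 to 9565000 averaged 76.6 RPKM in the double mutant and 81.0 in the hrde-1 triple mutant, against 37.0 in N2 and 5.68 in hrde-1 (differences 1.05 and 3.66, limma adjusted p = 4.19e-27). II 503001 to 505000 averaged 65.8 and 120 RPKM in the double mutant and the hrde-1 triple mutant, against 30.1 in N2 and 9.37 in hrde-1 (differences 0.99 and 3.06), and 1 of its bins is misanotated. Within the prefix SG0615, the difference was therefore about 1 at both. At both, every library of this prefix also read higher than each Pol II library of another prefix. The remaining 3 named gains were single low bins of the X chromosome. X 1722001 read 8.65 and 12.7 RPKM in the double mutant and the hrde-1 triple mutant, against 2.30 in N2 and 1.49 in hrde-1. X 5686001 read 7.99 and 5.61 RPKM in these mutants, against 0.27 in N2 and 2.10 in hrde-1, and X 14340001 read 6.32 and 2.88 RPKM, against 0.81 in N2 and 0.17 in hrde-1. Averaged over the intact libraries all 3 lay under 2 RPKM, so they passed the filter on low bins through the mutants and had to differ.

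The deepest falls were on chromosome III, which carries met-2 and set-25. At III 13287001 to 13289000, Pol II averaged 2.68 RPKM in the double mutant and 1.58 in the hrde-1 triple mutant, against 20.9 in N2 and 19.6 in hrde-1. Its second bin, III 13288001, read 0 in both mutants, which allows up to 0.999 and 0.455 RPKM at 3 reads per library, so it was at least 20.02-fold lower in the N2 pair and at least 40.8-fold lower in the hrde-1 pair (counting error only). At III 8376001 to 8378000 the mutants averaged 5.66 and 7.50 RPKM, against 29.0 in N2 and 27.7 in hrde-1 (log2 change -2.11 ± 0.25 SE, limma adjusted p = 4.96e-21). A bin of each region gave the 2 calls that held without the intensity trend (limma adjusted p = 8.93e-05 and 0.0455). Both mutations are known as deletions, and whether the DNA of these bins is present in the mutants was not tested.

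Elsewhere, falls in both pairs were rare and small in extent. I 6500001 to 6502000 averaged 30.9 RPKM in the double mutant and 12.1 in the hrde-1 triple mutant, against 70.8 in N2 and 61.2 in hrde-1 (log2 change -1.54 ± 0.22 SE, limma adjusted p = 3.23e-15). X 7229001 read 10.7 and 2.73 RPKM in the double mutant and the hrde-1 triple mutant, against 23.8 in N2 and 26.0 in hrde-1, and X 11885001 read 12.7 and 4.09 RPKM in those mutants, against 28.9 in N2 and 18.7 in hrde-1. X 1490001 to 1492000 averaged 20.05 and 8.35 RPKM in the double mutant and the hrde-1 triple mutant, against 50.3 in N2 and 22.3 in hrde-1, with 0% of its values at whole reads. At these 4 the values given did not overlap between groups, by a narrow margin for the average at X 1490001. Over all bins tested, 13.0% had both mutants below both intact libraries. In the first bin of the X 1490001 region the groups overlapped, at 31.73 RPKM in the double mutant against 31.56 in hrde-1. II 2273001 to 2275000 was even within each group, at 5.52 and 5.31 RPKM in the mutants against 12.5 in N2 and 16.5 in hrde-1 (log2 change -1.26 ± 0.28 SE, limma adjusted p = 0.000351).

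Some falls belonged to a single library. II 10932001 to 10937000 averaged 11.6 RPKM in the double mutant and 151 in the hrde-1 triple mutant, against 119 in N2 and 193 in hrde-1, so that the difference was -2.82 in the N2 pair and -0.25 in the hrde-1 pair. III 1819001 to 1829000 averaged 9.33 and 9.40 RPKM in the double mutant and the hrde-1 triple mutant, against 41.1 in N2 and 13.5 in hrde-1, and here N2 stood apart. The other 6 named falls, at V 10954001, IV 13082001, IV 10355001, III 918001, I 14620001 and V 1159001, had log2 changes of -1.40 to -1.28, and the groups overlapped at III 918001. Most of them leaned on 1 pair. IV 10355001, a GRH bin, read 8.32 and 38.8 RPKM in the double mutant and the hrde-1 triple mutant, against 41.9 in N2 and 54.5 in hrde-1 (differences -2.20 and -0.48). I 14620001 read 16.6 and 12.1 RPKM in these mutants, against 24.7 in N2 and 52.6 in hrde-1 (differences -0.54 and -2.04). The differences in the N2 and hrde-1 pairs were -0.59 and -1.96 at V 1159001, -0.84 and -1.96 at V 10954001, -0.95 and -1.83 at IV 13082001 and -1.40 and -1.26 at III 918001.

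Bins that the authors mark as targets of nuclear RNAi had median differences near those of all bins or lower, depending on the mark. They mark 191 bins as GRTS and 215 as GRH, terms used for regions of germline nuclear RNAi with silenced transcription and with heterochromatin; the sources used here do not say how they were set. The median of GRTS bins stood at 5.66 RPKM in the double mutant, against 5.6 in N2, and at 42.1 RPKM in the hrde-1 triple mutant, against 34.0 in hrde-1. This median was thus low in both libraries with HRDE-1. Their median difference was 0.09 in the N2 pair and -0.03 in the hrde-1 pair, beside 0.15 and 0.02 over all bins tested. The mean over both pairs was -0.02, turning to -0.24 when libraries were centred and to 0.06 after cyclic loess. The median of all bins turned from 0.10 to -0.12 when centred. Of the 191 GRTS bins 0 passed the size rule, which 0.0940% of all bins passed upwards and 0.0188% downwards. That rule asks for at least 10 RPKM in the N2 pair too, where both GRTS medians lay below this level. The 0 is therefore no measure of change at GRTS bins.

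Within the GRTS list 11 bins rose and 1 fell by limma (5.76% and 0.524%), against 0.541% and 0.238% of all bins tested. Large differences of a single pair went both ways. In the hrde-1 pair 23 of 191 GRTS bins were 2-fold or more higher and 11 lower, against 2713 and 958 of all 95735 bins tested. In the N2 pair 11 were higher and 5 lower, against 7180 and 858. All 11 that rose by limma did so in the hrde-1 pair, by 1.47 to 3.23, with differences of -0.25 to 0.88 in the N2 pair. The main stretch was IV 915001 to 921000, where 6 GRTS bins were called. V 18440001 and V 18441001 are neighbours too, and V 8826001 and V 8868001 read nearly alike in every library. The 11 are thus not 11 separate places. The bin IV 916001 read 6.32 RPKM in the double mutant and 107 in the hrde-1 triple mutant, against 2.97 in N2 and 11.9 in hrde-1. At V 18440001 the values were 5.66 and 138 RPKM in the double mutant and the hrde-1 triple mutant, against 4.32 in N2 and 34.8 in hrde-1, and at V 8826001 they were 6.26 and 100 RPKM in the same mutants, against 4.26 in N2 and 35.6 in hrde-1. These bins were low with HRDE-1 and higher in the hrde-1 triple mutant than in hrde-1. With SET-32 lost as well, IV 916001 read 216 RPKM in the met-2 set-25 hrde-1 mutant, against 132 in set-32 hrde-1. V 18440001 and V 8826001 went the other way there, at 53.2 and 24.1 RPKM against 84.7 and 69.5. Whether the difference depends on hrde-1 status was tested with a product term over all 8 Pol II libraries: by limma 0 bins were higher (0.00%) and 1 lower (0.00100%), with 2429 at an unadjusted p under 0.05, and no GRTS bin was among the calls.

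The median GRH bin was lower in both pairs, as was the median bin in each decile by level from the eighth up. Their median was 9.49 RPKM in the double mutant, against 13.4 in N2, and 25.03 in the hrde-1 triple mutant, against 26.8 in hrde-1. The median difference was -0.30 in the N2 pair and -0.07 in the hrde-1 pair, and 90 of 215 bins (41.9%) were lower in both pairs, against 21.8% of all bins tested. Of the GRH bins 29, 65 and 90 lay in the eighth, the ninth and the top decile of bins by their mean in set-32 and set-32 hrde-1, and in these deciles 34.6, 46.5 and 55.5% of all bins were lower in both pairs. Median differences of these deciles were -0.07, -0.18 and -0.24 in the N2 pair and -0.05, -0.11 and -0.14 in the hrde-1 pair. The GRH median lay below each of them in the N2 pair and within their range in the hrde-1 pair. One limit of this ordering is that set-32 hrde-1 lacks HRDE-1. The GRH median was 27.2 RPKM there, against 15.5 in set-32. By limma 7 GRH bins fell (3.26%, against 0.238% of all bins) and 1 rose (0.465%, against 0.541%). Of the 7 that fell, 3 are neighbours. Falls by limma were more frequent at high levels. They made up 0.501% of bins in the ninth and 1.67% in the top decile by N2 and hrde-1 level, libraries that enter the difference. By the size rule 0 of 215 GRH bins passed, near the 0.0940% and 0.0188% of all bins. At 3 neighbouring bins, I 4467001 to 4470000, the values were 3 to 4.99 RPKM in the double mutant and 4.39 to 18.7 in the hrde-1 triple mutant, against 14.3 to 22.2 in N2 and 7.52 to 28.9 in hrde-1. The 7 falls were 1.27 to 2.20 on the log2 scale in the N2 pair and 0.43 to 0.95 in the hrde-1 pair. Of all 215 GRH bins, 29 were 2-fold or more lower in the N2 pair and 0 in the hrde-1 pair. Among the 95735 bins tested these counts were 858 and 958. In the top decile by N2 and hrde-1 level, 157 of 9574 bins were 2-fold or more lower in the N2 pair.

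**Figure D3:**
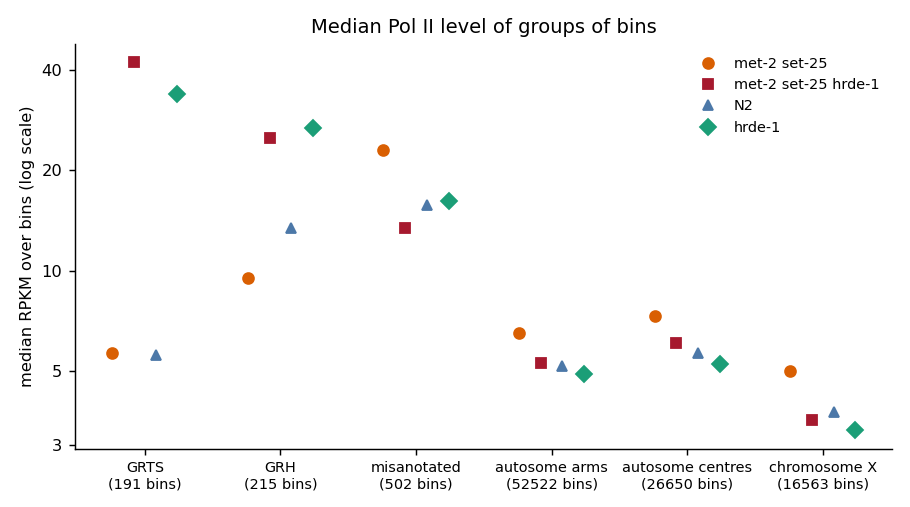
Median Pol II level, in RPKM on a log axis, of groups of bins in each of the 4 libraries. GRTS and GRH medians are higher in both libraries without HRDE-1 than in both with it, and misanotated bins are high in the double mutant at 23.0 RPKM but not in the hrde-1 triple mutant at 13.4 RPKM.

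The median difference varied with the Pol II level of a bin. Bins were ordered by their mean in set-32 and set-32 hrde-1, which enter neither pair, an ordering added after seeing the data. In the lowest decile the median difference was 0.43 in the N2 pair and 0.09 in the hrde-1 pair, and in the highest it was -0.24 and -0.14. Without the filter on low bins the lowest decile stood at 0.40 and 0.10 and the highest at -0.24 and -0.14. Ordering by N2 and hrde-1 themselves gave 0.79 and 0.32 in the lowest decile, which is no measure of a change: those libraries enter the difference, and such low bins passed the filter through high mutant values. The hrde-1 pair stayed at 0.09 to 0.11 over the lower 6 deciles, and the N2 pair fell from the fourth on. The evenness of the double mutant library moves with this, and its part in the result was not tested. Misanotated bins stood at 23.0 RPKM in the double mutant, against 15.8 in N2, and at 13.4 RPKM in the hrde-1 triple mutant, against 16.2 in hrde-1, so the pairs went in opposite directions over the list.

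**Figure D4:**
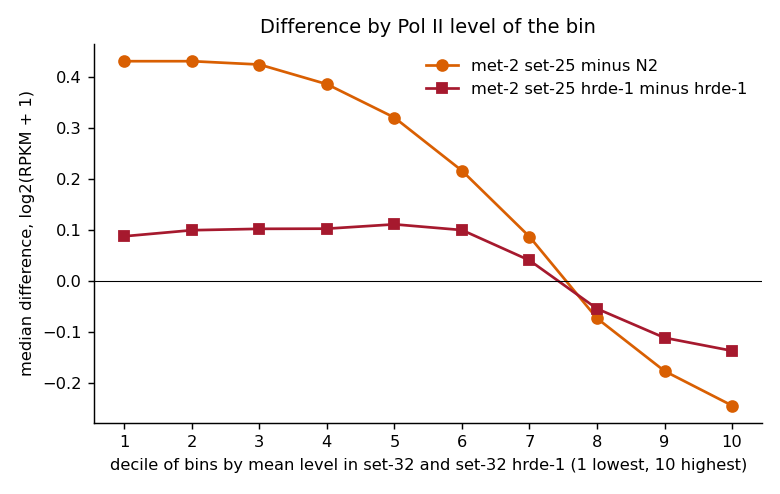
Median difference in log2(RPKM + 1) between mutant and intact library for each pair (y axis), by decile of bins ordered by their mean RPKM in set-32 and set-32 hrde-1 (x axis), libraries that enter neither pair. Values run from 0.43 and 0.09 in the lowest decile to -0.24 and -0.14 in the highest, and the N2 pair spans the wider range.

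Arms and centres of the autosomes had nearly the same median difference. With each autosome cut into 3 equal stretches, the outer ones taken for arms and the inner one for the centre, the median arm bin stood at 6.49 RPKM in the double mutant and 5.30 in the hrde-1 triple mutant, against 5.19 in N2 and 4.90 in hrde-1. The median centre bin stood at 7.32 and 6.06 RPKM in the double mutant and the hrde-1 triple mutant, against 5.67 in N2 and 5.25 in hrde-1. The median difference of arms minus that of centres was 0.01 in the N2 pair and -0.05 in the hrde-1 pair, with a range of -0.04 to 0.02 over the autosomes in the N2 pair and -0.07 to -0.01 in the hrde-1 pair. Gains past the size rule were, by count, on the arms in 68 of 90 bins (75.6%, against 54.9% of all bins tested) and in the centres in 16 (17.8%, against 27.8%), and 16 of the arm bins are the chromosome I stretch. Gains by limma lay nearer the shares of all bins, with 302 of 518 on the arms (58.3%) and 129 in the centres (24.9%). The X chromosome differed from the autosomes by 0.12 in the N2 pair and 0.08 in the hrde-1 pair. X bins stood at 4.99 RPKM in the double mutant and 3.57 in the hrde-1 triple mutant, against 3.78 in N2 and 3.32 in hrde-1. After quantile normalization the mean difference of X from the autosomes was 0.02, and after cyclic loess 0.01. Chromosome I held 27 of the 90 gains (0.182% of its tested bins, against 0.0940% of all), of which 16 are the stretch named above. V held 22 (0.114%), IV 16 (0.0967%), II 10 (0.0673%), III 9 (0.0663%) and X 6 (0.0362%).

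The same bins were then read in the set-32 mutants, which took no part in the choice. The set-32(red11) met-2 set-25 worms, the set-32 triple mutant, were set against set-32, and the quadruple mutant, which lacks hrde-1 too, against set-32 hrde-1. Of the 90 gains, 71 (78.9%) were higher in both of these pairs, and 33 (36.7%) were at least 2-fold higher in both. Without misanotated bins the 2-fold count was 17 of 73 (23.3%). Among all bins tested 63.2% were higher in both and 15.0% at least 2-fold, and among bins with at least 10 RPKM in each pair with SET-32 intact 11.4% and 0.795%. Neither background has the level of the gains, whose median was 6.07 RPKM over the intact libraries. Both set-32 mutant libraries that lack met-2 and set-25 were more even than the other 6 (90th to 10th percentile ratios of 3.72 and 4.31), and the part of this evenness in these shares was not tested. The bins are not separate places, as 16 of the 90 are the stretch at I 10204001. Counted by region, 40 of 58 averaged higher in both set-32 pairs and 3 lower in both. Only 7 of the 58 averaged a difference of at least 1 in both, a smaller share than the 15.0% of all bins. These 7 included IV 5683001, I 10204001, II 4171001 and V 20502001.

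IV 5683001 to 5690000 kept its values: it averaged 11.6 RPKM in the set-32 triple mutant and 12.2 in the quadruple mutant, against 2.21 in set-32 and 3.17 in the set-32 hrde-1 mutant. Pol II there was thus between 11.6 and 12.4 RPKM in all 4 mutants of met-2 set-25 and between 2.21 and 3.17 in all 4 intact libraries. V 20501001 to 20505000 read 18.4 and 149 RPKM in the set-32 triple mutant and the quadruple mutant, against 7.33 in set-32 and 20.8 in the set-32 hrde-1 mutant. It was thus high where hrde-1 was lost as well. II 9800001, V 2321001 and V 6835001, high in the hrde-1 triple mutant, read 6.31, 5.63 and 9.62 RPKM in the quadruple mutant, the other library without all of MET-2, SET-25 and HRDE-1.

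Both chromosome III falls were present in every met-2 set-25 mutant. III 13287001 to 13289000 averaged 2.85 RPKM in the set-32 triple mutant and 1.76 in the quadruple mutant, against 17.9 in set-32 and 18.05 in the set-32 hrde-1 mutant. Of the 18 bins past the size rule for lower Pol II, 9 (50%) were lower in both set-32 pairs, against 22.1% of all bins tested and 64.9% of those with at least 10 RPKM. Other falls turned round. I 6500001 to 6502000 read 79.9 RPKM in the set-32 triple mutant and 45.9 in the quadruple mutant, against 50.5 in set-32 and 22.6 in the set-32 hrde-1 mutant. A product of met-2 set-25 and set-32, tested over all 8 libraries, passed in both bins of that region (limma adjusted p = 0.00766 and 0.0237), which were chosen on 4 of these libraries. Over the genome this product was higher in 36 bins (0.0360%) and lower in 216 (0.216%) by limma, with 0 GRTS, 0 GRH and 0 misanotated bins among them.

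**Figure D5:**
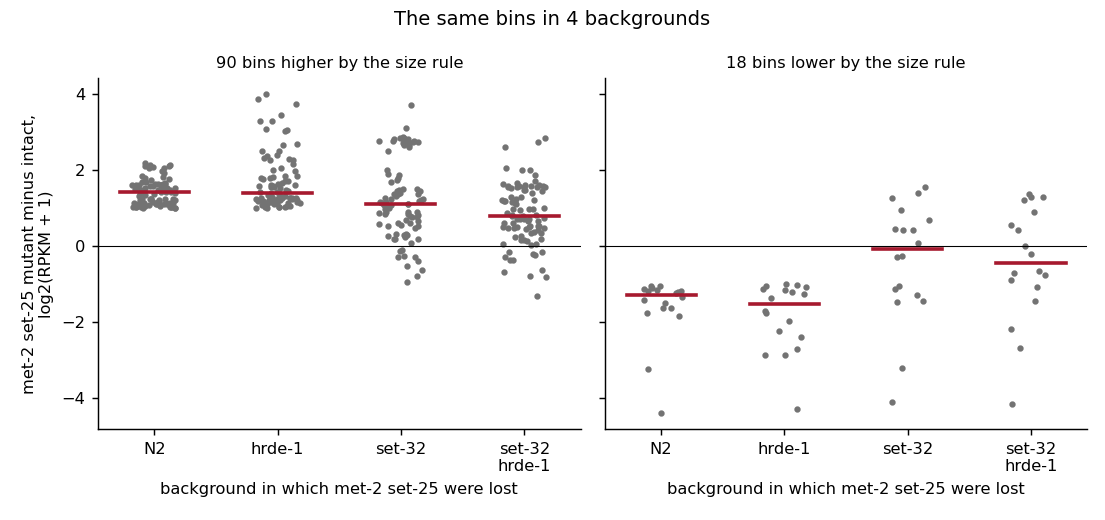
Difference in log2(RPKM + 1) between met-2 set-25 mutant and intact library in 4 backgrounds (x axis), for the 90 bins higher (left) and 18 bins lower (right) by the size rule, with 1 point per bin and the median as a bar. The bins were chosen in the N2 and hrde-1 backgrounds; in the set-32 and set-32 hrde-1 backgrounds the medians were 1.11 and 0.80 for the higher bins and -0.08 and -0.43 for the lower bins.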

How the data were processed

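Per the labels, Pol II ChIP-seq libraries of young adults were made from 1 sample per genotype. The deposited table gives RPKM per 1 kb bin, made by the authors, and Bowtie 0.12.7 is named in the submitters' processing notes. The genome build, multi-mapping rules and filters were not given in the sources used here. Table positions are used. The gene list at hand (WBcel235) has genes beyond the table's end on chromosomes I and V, so its coordinates were not taken as those of the table; no gene was assigned and no sequence read. The table's yes-or-no marks are the authors' deposited marks. Of 43 library columns, 35 match no sample and were unused, and the H3K9me3 samples were not analysed here.

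Values were taken as log2(RPKM + 1), which understates changes of low bins. Bins averaging 2 RPKM or more entered the test in limma 3.58.1 (R 4.3.3), with an intensity trend and terms for met-2 set-25 and hrde-1, two-sided, Benjamini-Hochberg adjusted over all bins, threshold 0.05. No genotype had a replicate, and numbers of cultures are not in the labels, so the error is the spread around the additive model and includes any interaction. An exact permutation of 2 against 2 libraries cannot go below p = 0.333 and was not used. Product terms were fitted over all 8 Pol II libraries. Called bins were merged across gaps of up to 1 bin; named were the 15 regions per direction with the largest mean change among those of the same sign in both pairs. Depth was estimated from the step between low values, 82.9 to 84.4% of which fell, by library, no more than 0.1 read from whole numbers. Whole reads were not recovered because of the rest, so no count test was run. The fit was tested on simulated data. Noise there depended on the level of a bin alone and the hrde-1 effect was additive, as the fit assumes. This run therefore cannot show how a spread particular to a bin, or an interaction, affects the calls. Other steps ran in Python 3.11.15 (pandas 2.3.3, numpy 2.4.6, with plots by matplotlib 3.10.9). Libraries, lists, rules and tests were chosen with earlier results of these data known. Alternatives tried were 3 library scalings, the pseudocount, the filter, 5 kb bins, other fits, leaving out each library and, added after seeing the data, another ordering of bins by level.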

Additional observations from a re-analysis of the deposited data

Results flagged for a closer look

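A product term, tested over 8 Pol II libraries with limma, passed the threshold in some bins for set-32 or hrde-1. For set-32 the product was positive in 36 bins (0.0360%) and negative in 216 (0.216%). Their median levels over the 4 libraries with SET-32 intact were 6.48 and 34.2 RPKM. The 2 set-32 mutant libraries without met-2 and set-25 are the most even, and no set-32 mutant library has the prefix SG0615. A dependence on set-32 cannot be told apart from these. For hrde-1 the product was negative in 1 bin. That bin, IV 2755001, had a product of -3.37 on the log2 scale (limma adjusted p = 0.00654). It read 48.2 RPKM in the double mutant and 4.20 in the hrde-1 triple mutant, against 12.3 in N2 and 40.1 in hrde-1.

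Among the named regions, 6 held a bin with a product of met-2 set-25 and set-32 past the threshold. The regions were chosen on libraries that also enter this product, so it is not independent of that choice. It was -2.73 at IV 325001, where the gain was seen with SET-32 intact and the set-32 pairs differed by 0.23 and -0.35. It was 2.41 at X 7229001, 2.45 at X 11885001, 2.43 at I 6500001, 3.16 at X 1490001 and 3.34 at IV 13082001, each lower with SET-32 intact and higher in both set-32 pairs.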

How the results depend on the processing

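No paired analysis by replicate number was possible because each genotype had 1 library; pairing by hrde-1 status was part of the test, and without that term limma called 0 higher and 1 lower bin. The limma counts, 518 higher and 228 lower, moved widely. They were 202 higher when centred, 131 and 17 after quantile normalization, 150 and 22 after cyclic loess, 281 and 118 with a 5 RPKM minimum, 57 and 12 in 5 kb bins, 0 and 2 without the trend, and 18 and 7 in a fit over 8 libraries. In that fit, leaving out 1 of the 4 libraries gave 0 to 81 higher and 3 to 33 lower bins: 0 and 3 without hrde-1, 4 and 11 without the hrde-1 triple mutant, 46 and 6 without N2, 81 and 33 without the double mutant. A library left alone in its arm is there assumed to vary like the others. The size rule gave 46 and 53 bins when centred, 9 and 1 in 5 kb bins, and 740 to 888 higher and 419 to 481 lower when a library was left out and 1 pair remained. Choices made after seeing the data left 73 higher bins without misanotated bins, and 60 higher and 14 lower without bins where under 50% of values were whole reads.

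The median of all bins, 0.10, was -0.12 when centred, -0.012 after quantile normalization, -0.0047 after cyclic loess and -0.035 with a 5 RPKM minimum. GRTS bins, at -0.02, were at -0.24 centred, -0.11 after quantile normalization, 0.060 after cyclic loess and 0.065 in 5 kb bins, and leaving out 1 library gave -0.026 to 0.087. GRH bins, at -0.18, were at -0.40 when centred. X minus autosomes, at 0.09, was 0.021 after quantile normalization, 0.012 after cyclic loess and 0.14 with a 5 RPKM minimum.

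The product with hrde-1 (0 and 1 called) gave 3 lower when centred, 0 after quantile normalization and 0 with a 5 RPKM minimum, and 4 to 69 higher and 30 to 281 lower when 1 library was left out. The product with set-32 (36 and 216) gave 59 and 1238 when centred, 7 and 26 after quantile normalization, 9 and 65 with that minimum, 21 higher at a pseudocount of 0.5, and 0 to 6419 higher and 0 to 1283 lower when 1 library was left out. The cause of these moves was not tested. No named region changed direction under any alternative run. Of 15 named gains and 15 named falls, 13 and 10 stayed past the threshold after quantile normalization, 13 and 12 after cyclic loess, 7 and 5 in the fit over 8 libraries, 0 and 2 without the trend.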
